A study of Danio rerio with 2 samples.

Results

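The Tfap2 (AP-2) transcription factors of zebrafish, tfap2a, tfap2b, tfap2c, tfap2d and tfap2e, were followed across cell clusters of embryos aged 24 hours post fertilization (hpf). The members were the rows of the deposited gene lists with these symbols, 5 of 25107 genes, and each gene ID was paired with its symbol there by the reference table of gene names. The IDs were ENSDARG00000059279 for tfap2a, ENSDARG00000012667 for tfap2b, ENSDARG00000040606 for tfap2c, ENSDARG00000023272 for tfap2d and ENSDARG00000008861 for tfap2e. Both groups of cells carried the transgene Tg(mitfa:GFP), in which the promoter of mitfa, the master regulator of the melanophore fate, drives green fluorescent protein (GFP). Sorted cells with low GFP made 1 droplet single-cell library and cells with high GFP made the other, so the groups differed in the sorted GFP level and had no replicate library. The number of embryos pooled is not given in the sources used here. The sort does not purify pigment cells, since both fractions held many cells of other types.

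Tfap2 proteins bind DNA as dimers at GC-rich sites and act mainly as activators, and their close DNA-binding domains let members stand in for each other. In zebrafish, tfap2a is needed for neural crest derivatives, among them pigment cells, and tfap2c acts with it in crest induction and in the early epidermis. Tfap2e is known in zebrafish as a melanophore gene that acts with tfap2a in melanophore differentiation. Tfap2b and tfap2d are better known from neurons, tfap2b also from mouse sympathetic neurons and kidney, and tfap2d from the mouse midbrain.

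The cell table of the authors kept 2361 cells of the low and 2374 of the high library, with 14826056 and 17545390 unique molecular identifiers (UMIs) and medians of 5732 and 6858 UMIs per cell. The libraries shared 1 barcode. Levels are CPM, the UMIs of a gene divided by all UMIs of the same cells and scaled to a common total, and genes are not ranked against each other by level, because capture differs between genes. With 1 library per group no test was possible. All intervals are exact intervals at 95% and cover counting error only, and PCR copies were already collapsed by the UMIs. Clusters were those of the table. The paper states that highly variable genes were used for clustering, and whether the members were among them is not known here. A difference between clusters therefore describes the clusters and is no independent evidence. Cluster 6 (22 low and 197 high cells) was melanophore-like, the black pigment cell, with 4 of 11 melanophore markers among its 10 leading genes. Cluster 3 (78 and 324 cells) was xanthophore-like, the yellow pigment cell, with 1 of 11 markers among the leading 10 and 9 of 11 at least 2-fold above the other cells. Cluster 7 (129 and 76 cells) was epidermis-like, with 4 of 12 markers in the leading 10. Its low cells also held 1713 CPM of blood and vessel markers, against 99.3 CPM in its high cells, and the part of those cells in the values below was not tested. Cluster 1 (380 and 435 cells) was led by alx4a, ednrab, mcamb, tgm2l, dlx5a and dlx2a, carried markers of more than 1 class and is named by its number. At least 2-fold above the other cells were 5 of 11 neural crest markers, a list that includes tfap2a, and 1 of 11 melanophore markers. It is counted below with the pigment clusters, although 251 of its 380 low and 86 of its 435 high cells held 0 UMIs of the pigmentation genes used below. Of the other clusters, cluster 0 had 7 of 10 neural progenitor, cluster 2 had 7 of 11 mesenchyme, cluster 4 had 10 of 10 neuron and 7 of 8 sensory neuron, and cluster 8 had 10 of 10 muscle markers at least 2-fold above the other cells. Cluster 5 is named by its number.

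Tfap2a was seen in every pigment cluster, and its level was highest in melanophore-like cluster 6. There it reached 708.2 CPM (interval 605.2 to 823.8, 168 UMIs) among low cells and 528.5 CPM (498.3 to 560.1, 1141 UMIs) among high cells. Cluster 1 followed with 337.3 and 279.9 CPM, and xanthophore-like cluster 3 with 161.0 and 126.2 CPM. Neuron-like cluster 4 stood beside cluster 3 at 145.8 and 151.0 CPM. Epidermis-like cluster 7 had 56.7 CPM (42.0 to 75) and 61.8 CPM (42.6 to 86.8), and mesenchyme-like cluster 2 had 35.0 and 29.1 CPM. Of the 33 tfap2a UMIs in the high cells of cluster 7, 12 came from 1 cell. Clusters 0, 5 and 8 ranged from 2.07 to 18.6 CPM. In this order only clusters 3 and 4 changed places between the libraries among the first 6, and these neighbours did not differ beyond counting error, with a log2 ratio of 0.14 of cluster 3 to 4 among low cells (lower bound -0.24) and of 0.26 of cluster 4 to 3 among high cells (lower bound -0.06).

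Tfap2a UMIs occurred in each of the 22 low and in 194 of the 197 high cells of cluster 6, and in 81.3% and 78.9% of cluster 1. It was seen in 64.1% and 59.3% of cluster 3. In muscle-like cluster 8, where the level was low, the share was 3.57% (84 low cells) and 5.80% (69 high cells). Its medians of 9634 and 10488 UMIs were close to those of 10562 and 10960 UMIs in cluster 6. Of the 4 high cells of cluster 8 with tfap2a, 3 held at least 3 UMIs, and whether these are stray counts was not tested. With every cell thinned to 2000 UMIs, the shares became 70.7% and 63.2% in cluster 6, 44.8% and 39.2% in cluster 1, and 26.3% and 21.8% in cluster 3. Cluster 7 then had 9.56% and 8.08%, and cluster 8 had 1.07% and 2.12%. In neuron-like cluster 4 few cells held many tfap2a UMIs: 32 of 197 low cells had 128 UMIs and 26 of 148 high cells had 106.

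Tfap2e was highest in melanophore-like cluster 6. It reached 577.5 CPM (484.9 to 682.7) among low cells and 598.4 CPM (566.2 to 632.0) among high cells in cluster 6, where 22 of 22 and 195 of 197 cells held a UMI. Cluster 3 had 100.4 CPM (78.0 to 127.3) and 133.1 CPM (120.8 to 146.3), and cluster 1 had 46.0 CPM (39.0 to 54.0) and 147.3 CPM (135.8 to 159.6). The order of clusters 1 and 3 thus differed between the libraries, with a log2 ratio of cluster 3 to 1 of 1.13 (0.69 to 1.55) among low cells and -0.15 (-0.33 to 0.04) among high cells. Neuron-like cluster 4 held 34.2 and 35.6 CPM, in 8 and 9 cells. Of these UMIs, 9 of 30 among low cells and 12 of 25 among high cells came from 1 cell. Cluster 7 held only 3 and 5 UMIs, or 3.47 and 9.37 CPM. The remaining clusters with at least 20 cells ranged from 0.829 to 15.7 CPM. The last value was that of the high cells of muscle-like cluster 8, where 7.25% of cells held a tfap2e UMI and 1 cell held 6 of the 11 UMIs.

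Tfap2c had like levels in melanophore-like and epidermis-like cells. Its level was 164.4 CPM (116.9 to 224.7) and 122.3 CPM (108.0 to 138.0) in cluster 6. In cluster 7 it was 123.9 CPM (101.5 to 149.7) and 97.4 CPM (72.8 to 127.8). Cluster 1 had 18.0 and 36.5 CPM, cluster 3 had 11.8 and 18.4 CPM, and the others with at least 20 cells stayed between 1.04 and 7.97 CPM. A tfap2c UMI was seen in 14 of 22 and 124 of 197 cells of cluster 6 and in 41.1% and 38.2% of cluster 7. In cluster 8 it was seen in 2.38% and 5.80% of cells.

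Tfap2b and tfap2d were rare and both peaked in neuron-like cluster 4. Tfap2b had 208 UMIs in all, with 33.0 CPM (22.1 to 47.4) in the low and 49.9 CPM (34.7 to 69.4) in the high cells of cluster 4, from 13 and 11 cells. Clusters 1 and 0 followed at 7.01 and 6.98 CPM among low cells and 8.58 and 8.29 CPM among high cells, and these neighbours did not differ beyond counting error. In cluster 3 tfap2b had 0 UMIs in the low cells and 1 in the high cells. Tfap2d had 18 UMIs in all, 17 of them in cluster 4. It had 6 UMIs in 3 low cells and 11 UMIs in 3 high cells there, and 1 further UMI lay in cluster 1. In cluster 6 tfap2d was at 0 UMIs in its 22 low cells and its 197 high cells, and the exact upper limits were 15.6 and 1.71 CPM. Tfap2b and tfap2d are adjacent genes on 1 chromosome in the RefSeq annotation of assembly GRCz12tu, with 0 genes between them, and 1 low cell of cluster 4 held both, too few to say whether they occur together.

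**Figure D1:**
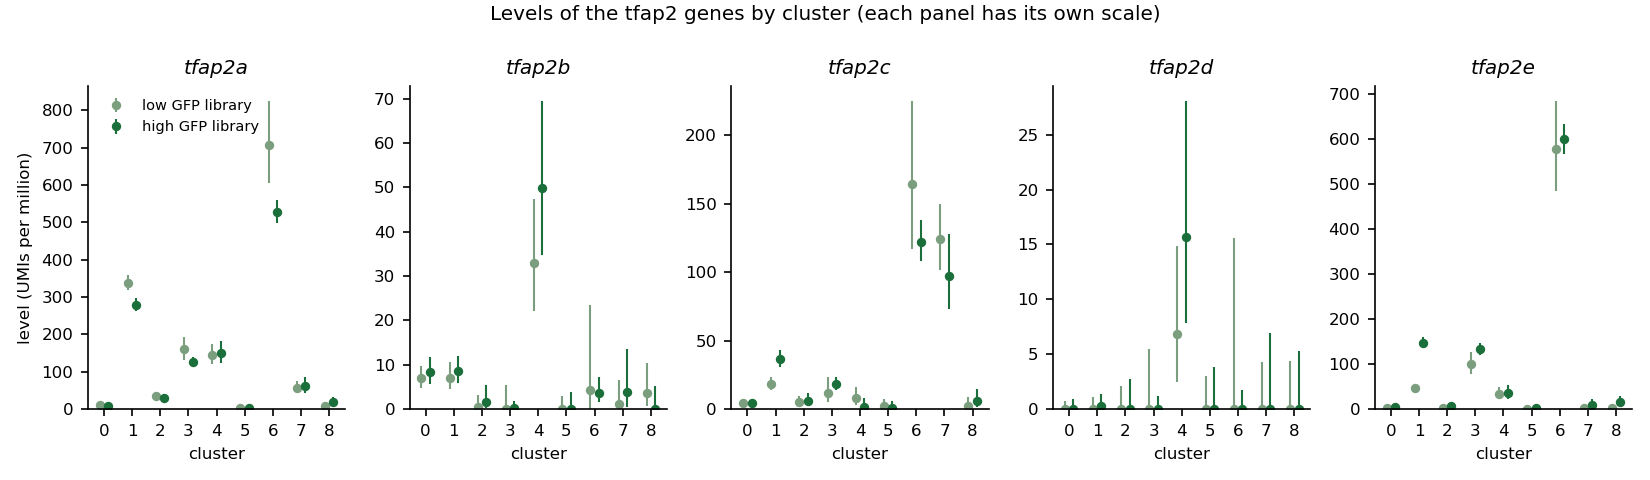
Levels of the 5 tfap2 genes (CPM, y axis, its own scale in each panel) in clusters 0 to 8 of the low (light) and high (dark) GFP libraries, with points for the summed UMIs of a cluster and bars for exact Poisson intervals at 95%. Tfap2a and tfap2e peaked in cluster 6, tfap2c in clusters 6 and 7, and tfap2b and tfap2d in cluster 4. Cluster 9, with 19 cells in the low library only, is left out.

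The pigment clusters were then set against epidermis-like cluster 7, a cell type in which tfap2a and tfap2c are also known to act in zebrafish. A gene was counted as higher or lower at a ratio of at least 2-fold, among genes with at least 20 UMIs over both clusters. Tfap2d never reached that minimum and tfap2b reached it only in cluster 1, so 4 members could be counted in cluster 1 and 3 in clusters 3 and 6. In cluster 1, tfap2a, tfap2b and tfap2e were higher in both libraries, where 22.6% of genes were higher among low cells and 29.1% among high cells. Tfap2c was lower in both, where 13.8% and 12.3% of genes were lower. In cluster 3, tfap2a and tfap2e were higher, against 20.8% and 27.5% of genes, and tfap2c was lower, against 23.1% and 16.0%. In cluster 6, tfap2a and tfap2e were higher, against 20.3% and 33.0% of genes, and no member was lower, against 28.4% and 16.8%. Counts of 3 or 4 members are too few to be read against these shares.

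For tfap2e the log2 ratio to cluster 7 was 7.38 (5.80 to 9.67) in the low and 6.0 (4.77 to 7.62) in the high cells of cluster 6. It was 4.85 (3.25 to 7.17) and 3.83 (2.59 to 5.46) in cluster 3, and 3.73 (2.15 to 6.02) and 3.97 (2.74 to 5.60) in cluster 1. These wide intervals come from the 3 and 5 UMIs of cluster 7. For tfap2a the log2 ratio was 3.64 (3.18 to 4.13) and 3.10 (2.60 to 3.64) in cluster 6, 2.57 (2.16 to 3.02) and 2.18 (1.68 to 2.72) in cluster 1, and 1.50 (1.01 to 2.02) and 1.03 (0.52 to 1.59) in cluster 3. Tfap2a therefore stood above its level of cluster 7 in clusters 1, 3 and 6, least so in xanthophore-like cells. In the high library that level rests on 33 UMIs, 12 of them from 1 cell, which the intervals do not cover. For tfap2c the ratio was negative in cluster 1, at -2.78 (-3.27 to -2.31) and -1.42 (-1.88 to -0.93), and in cluster 3, at -3.39 (-4.64 to -2.36) and -2.41 (-2.97 to -1.84). In cluster 6 the tfap2c level did not differ from that of cluster 7 beyond counting error, with log2 ratios of 0.41 (-0.16 to 0.95) and 0.33 (-0.11 to 0.79). The tfap2b ratios in cluster 1, 2.60 (-0.02 to 7.96) and 1.19 (-0.77 to 4.30), had intervals that included 0. Over all genes tested, the median log2 ratio to cluster 7 lay between -0.03 and 0.44.

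**Figure D2:**
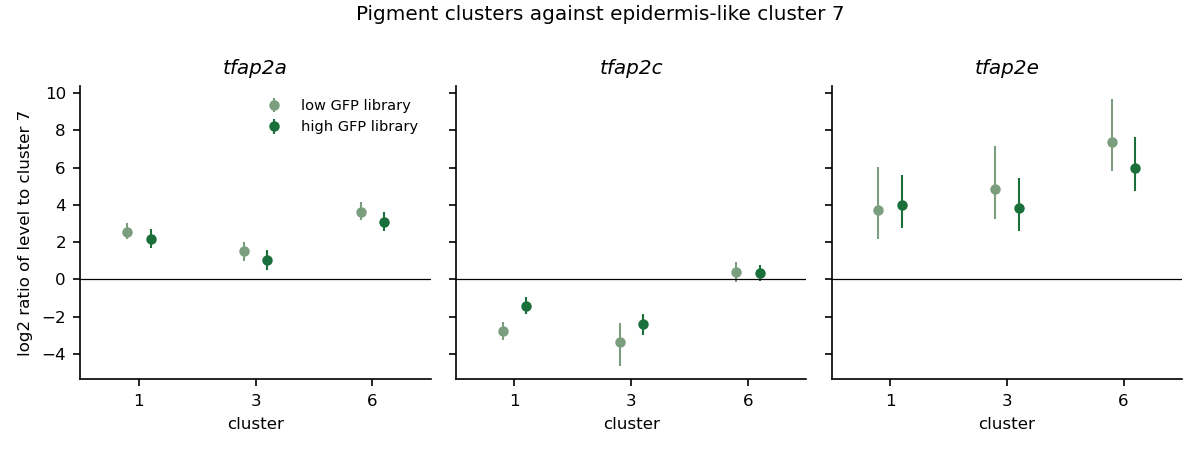
The log2 ratio of the level in clusters 1, 3 and 6 to that in epidermis-like cluster 7 (y axis) for tfap2a, tfap2c and tfap2e in each library, with exact conditional intervals at 95%. Tfap2a and tfap2e lie above 0 throughout, with tfap2e at 7.38 and 6.0 in cluster 6, and tfap2c lies below 0 in clusters 1 and 3 and near 0 in cluster 6.

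Between the pigment clusters, all of tfap2a, tfap2c and tfap2e were higher in melanophore-like than in xanthophore-like cells. The log2 ratio of cluster 6 to 3 was 2.14 (1.78 to 2.50) and 2.07 (1.90 to 2.23) for tfap2a, 3.80 (2.68 to 5.11) and 2.73 (2.32 to 3.17) for tfap2c, and 2.52 (2.09 to 2.97) and 2.17 (2.01 to 2.33) for tfap2e. Against cluster 1 the ratio of cluster 6 was smaller for tfap2a, at 1.07 (0.83 to 1.31) and 0.92 (0.80 to 1.04). It was 3.65 (3.31 to 3.99) and 2.02 (1.88 to 2.16) for tfap2e, and 3.19 (2.57 to 3.80) and 1.74 (1.45 to 2.04) for tfap2c. Tfap2a was lower in cluster 3 than in cluster 1, by a log2 ratio of -1.07 (-1.36 to -0.78) and -1.15 (-1.32 to -0.98). Tfap2b was also lower in the high cells of cluster 3, with 1 UMI against 35 in cluster 1.

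The makeup of the family within a cluster differed accordingly. Of the joint UMIs of tfap2a, tfap2c and tfap2e, tfap2c held 67.3% (59.4 to 74.5%) and 57.8% (46.9 to 68.1%) in cluster 7 and 11.3% and 9.79% in cluster 6. Tfap2e held 1.89% and 5.56% in cluster 7, 39.8% (34.6 to 45.2%) and 47.9% (46.0 to 49.8%) in cluster 6, and 36.8% and 47.9% in cluster 3. In cluster 1 the tfap2e share was 11.5% (9.79 to 13.3%) among low cells and 31.8% (29.7 to 33.9%) among high cells, and that of tfap2a was 84.1% and 60.4%. Such shares compare clusters, since UMIs of different genes are not on 1 scale.

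**Figure D3:**
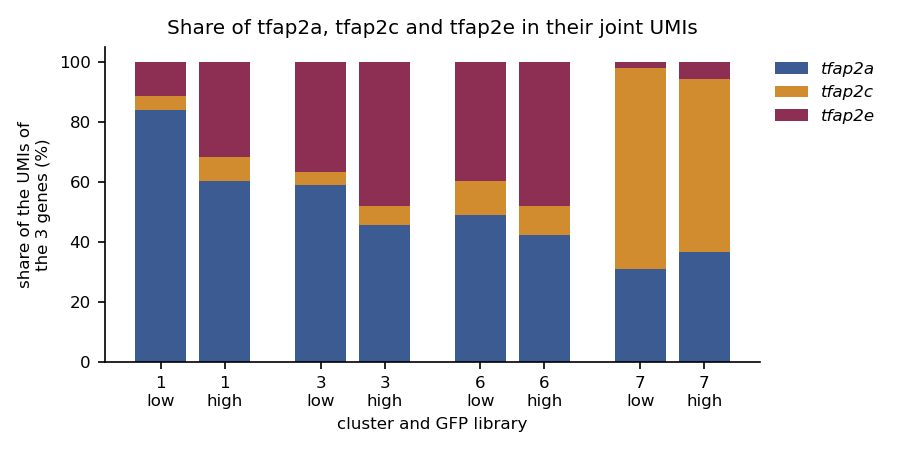
Share of tfap2a, tfap2c and tfap2e (stacked bars, percent of their joint UMIs, y axis) in clusters 1, 3, 6 and 7 of each library. The tfap2c share is 67.3% and 57.8% in cluster 7 and 11.3% and 9.79% in cluster 6. The tfap2e share of cluster 1 is 11.5% among low cells and 31.8% among high cells.

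The libraries were compared next, over all cells and within clusters. Over all cells the high library was higher in tfap2e, with 136.4 against 27.7 CPM (log2 ratio 2.30, 2.15 to 2.46), in tfap2c, with 31.7 against 17.3 CPM (0.88, 0.66 to 1.1), and in tfap2a, with 166.1 against 113.4 CPM (0.55, 0.46 to 0.64). Tfap2b hardly differed, at 6.55 and 6.27 CPM (0.06, -0.34 to 0.47). The high library held 197 cells of cluster 6 against 22, and 324 of cluster 3 against 78, so values over all cells and values within clusters need not go the same way. In cluster 1 tfap2e was higher in the high library, by a log2 ratio of 1.68 (1.42 to 1.95), and tfap2c by 1.02 (0.58 to 1.48). Tfap2a was lower there, at -0.27 (-0.39 to -0.15), and remained negative under each scaling tried. In clusters 3 and 6 the tfap2a ratio was -0.35 (-0.66 to -0.03) and -0.42 (-0.66 to -0.18), and -0.25 and -0.40 with median-of-ratios factors. TMM factors, which shift every gene there by 0.37 and 0.52, gave 0.02 and 0.10, so the direction depends on the scaling. Tfap2e in cluster 6 had a ratio of 0.05 (-0.20 to 0.32), or 0.57 with TMM scaling. In cluster 3 it was 0.41 (0.03 to 0.80), or 0.02 with every cell weighted equally. In cluster 7 neither tfap2a (0.12, -0.56 to 0.79) nor tfap2c (-0.35, -0.85 to 0.14) differed beyond counting error. The GFP fraction and the library cannot be told apart.

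**Figure D4:**
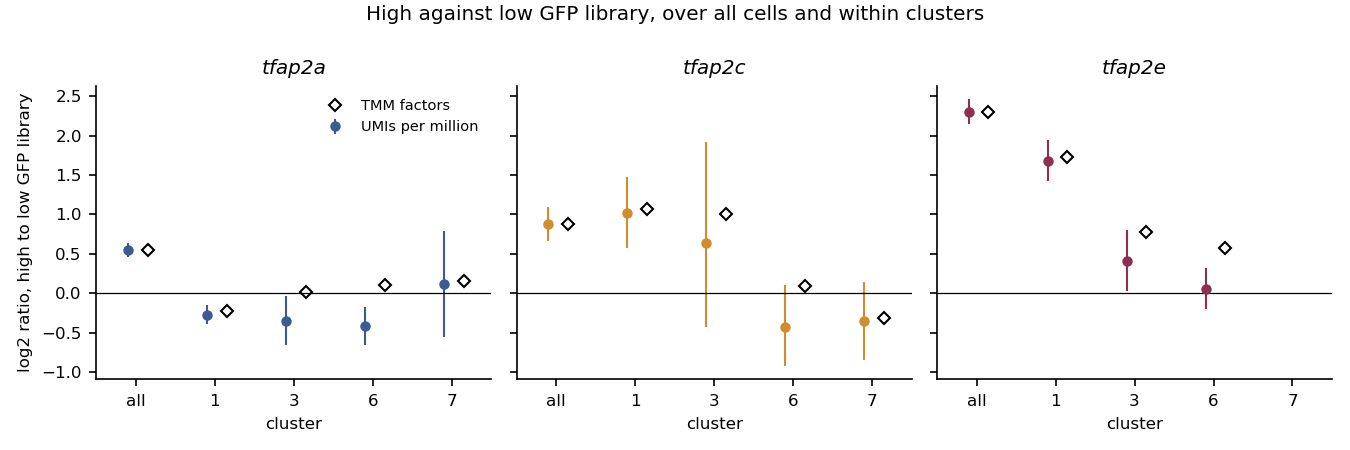
The log2 ratio of the level in the high to that in the low GFP library (y axis) for tfap2a, tfap2c and tfap2e over all cells and within clusters 1, 3, 6 and 7. Filled points are ratios of CPM with exact intervals at 95%, and open diamonds are the same ratios with TMM factors, which move tfap2a in cluster 6 from -0.42 to 0.10; tfap2e in cluster 7 had too few UMIs.

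Cluster 1 held cells with and without pigmentation UMIs, and its cells were placed in ranges by their UMIs of dct, pmela, tyrp1a, tyrp1b, tyr, oca2, slc24a5, slc45a2 and mlpha, genes of melanin synthesis and of the melanosome. Tfap2e differed by far more than tfap2a between these ranges. In low cells with 0, 1 to 9, and 10 or more pigmentation UMIs (251, 101 and 28 cells), tfap2e was at 7.10, 37.4 and 389.4 CPM. In high cells (86, 172 and 177 cells) it was at 7.67, 77.5 and 265.9 CPM. The log2 ratio of the upper range to the cells with 0 was 5.78 (4.99 to 6.67) and 5.12 (3.98 to 6.57), and with every cell weighted equally 4.18 and 4.92. Tfap2c was at 8.53, 15.4 and 103.1 CPM in low and 14.1, 16.0 and 63.3 CPM in high cells, with log2 ratios of 3.60 (2.68 to 4.54) and 2.17 (1.28 to 3.21). Tfap2a was at 346.2, 285.1 and 446.6 CPM in low and 301.5, 224.6 and 316.4 CPM in high cells, with ratios of 0.37 (0.07 to 0.65) and 0.07 (-0.15 to 0.29). The upper range thus had 1.29 and 1.05 times the tfap2a level of cells with 0, with the middle range below both, whereas tfap2e and tfap2c had their high levels in the upper range. Tfap2b rested on few UMIs, with 6 in the upper range of the low library (22.9 CPM) against 9 in cells with 0 (4.26 CPM). In cluster 1, 10 low and 44 high cells lay within 2 UMIs of the upper limit, and the ranges are no cell types.

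**Figure D5:**
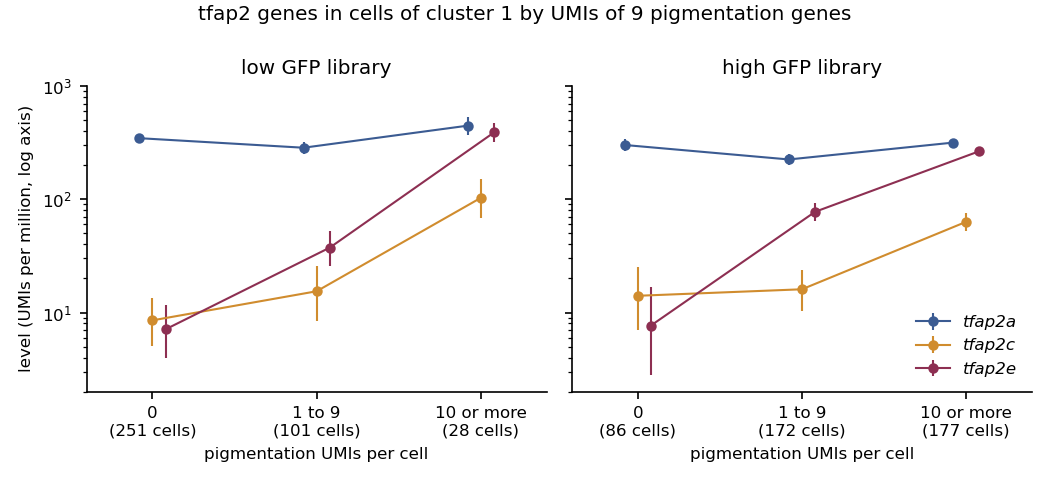
Levels of tfap2a, tfap2c and tfap2e (CPM, log axis) in cells of cluster 1 with 0, 1 to 9, and 10 or more pigmentation UMIs (x axis, with the number of cells), in the low and the high GFP library, with exact Poisson intervals at 95%. Tfap2e goes from 7.10 to 389.4 CPM among low cells and from 7.67 to 265.9 CPM among high cells, while tfap2a stays between 224.6 and 446.6 CPM.

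Read within the ranges, the difference in tfap2e between the libraries in cluster 1 was not uniform. High against low, the log2 ratio stood at 0.11 (-1.54 to 1.56) in cells with 0 pigmentation UMIs, 1.05 (0.49 to 1.65) in cells with 1 to 9, and -0.55 (-0.86 to -0.23) in cells with 10 or more. The tfap2a ratio was -0.20 (-0.42 to 0.01), -0.34 (-0.58 to -0.10) and -0.50 (-0.79 to -0.20) in the same ranges. In the high cells of xanthophore-like cluster 3 tfap2e varied little with these UMIs, at 130.8, 127.7 and 149.3 CPM (log2 ratio 0.19, -0.42 to 0.84). In its low cells it was at 79.8, 99.9 and 212.3 CPM (1.41, -0.51 to 3.14), with 2 cells in the upper range. Depth differed between the ranges, with a median of 12387 UMIs in the upper range of these high cells against 6426 UMIs at 0. In cluster 1 the medians were 9366 and 9886 UMIs against 8049 and 8784 UMIs.

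Cells of cluster 1 were also placed by their UMIs of mki67, top2a, pcna, mcm5, rrm2, ccnb1, cdk1, aurkb, plk1 and ccna2, genes of DNA replication and mitosis (11 gene IDs, since rrm2 names 2). Tfap2e was at 105.4, 40.8 and 16.1 CPM in low cells with 0, 1 to 4, and 5 or more of these UMIs, and at 188.5, 148.4 and 55.9 CPM in high cells. The log2 ratio of the upper range to 0 was -2.71 (-3.43 to -2.05) and -1.75 (-2.18 to -1.35). Without the cells of highest doublet score, the latter became -3.10. Tfap2c had ratios of -1.56 (-2.52 to -0.64) and -1.17 (-1.92 to -0.49), the latter -2.53 without those cells. Tfap2a again differed little, with -0.03 (-0.24 to 0.17) and -0.18 (-0.39 to 0.03). In the high cells of cluster 3 the tfap2e ratio was -0.04 (-0.42 to 0.33) and that of tfap2a was -0.66 (-1.09 to -0.25). Cells with more cell cycle UMIs were deeper. Medians were 9834 and 11760 UMIs in the upper range of cluster 1 against 7501 and 8610 UMIs at 0. These are the same cells of cluster 1 that were placed by pigmentation UMIs. How the cell cycle ranges overlap with the pigmentation ranges was not tested.

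Members were next compared within cells, at a common depth of 2000 UMIs. In cluster 6 tfap2a and tfap2e were both seen in 48.1% and 43.7% of cells, 1.01 times the product of their single shares in each library, and without thinning in 22 of 22 and 192 of 197 cells. All 124 high cells of cluster 6 with tfap2c also held tfap2a and tfap2e, but so did nearly every high cell of that cluster. Of its 197 high cells, 194 held tfap2a and 195 held tfap2e. At the common depth, tfap2c had ratios of 1.08 with tfap2a and 1.04 with tfap2e in these high cells. In cluster 1 tfap2c and tfap2e were seen together 4.69 times as often as the product among low cells and 1.64 times among high cells, in 17 and 71 cells without thinning. Tfap2a and tfap2e there had ratios of 1.35 and 1.15. In cluster 7 tfap2a and tfap2c had 1.53 and 2.63, with 20 and 9 cells. In neuron-like cluster 4 tfap2a and tfap2b had 4.81 and 7.82. Of its 13 low and 11 high cells with tfap2b, 11 and 11 also held tfap2a. These ratios describe cells of 1 library each.

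Where at least 20 cells held a member and fewer held it than lacked it, genes higher in the cells with it were listed. These were the 5 genes with the highest ratio of cells with it to cells without it. They needed at least 50 UMIs in the cells with the member, so genes lower with it were not sought. The share of all genes at such ratios is not given, and the lists are descriptions. In cluster 1, low cells with tfap2e were led by tyrp1b, a melanin synthesis enzyme (163.0 against 2.89 CPM), dct (386.2 against 17.4), pmela, the melanosome matrix protein (442.4 against 24.6), pnp4a (132.0 against 9.76) and cebpd (155.2 against 14.5). High cells with tfap2e were led by si:ch73-389b16.1, tyrp1b (307.2 against 38.8 CPM), zgc:91968, bnc2 and bhlhe41. Low cells of cluster 1 with tfap2c were led by mt2, dct, tfap2e itself (195.1 against 27.7 CPM), fstl1a and rab34b, and high cells by ttn.2, sema3fa, tbx2a, mt2 and fabp11a. Mt2 was seen in 6 of those 37 low cells. Ttn.2, a muscle marker, was seen in 10.3% of the high cells with tfap2c and 8.28% without. In xanthophore-like cluster 3 the low cells with tfap2e were led by AL935186.10, h1-10 (seen in 5 of 36 cells), serpinh1b, si:zfos-943e10.1 and uraha, at 1.81 to 4.67-fold. High cells of cluster 3 with tfap2c were led by mt2, a metallothionein, crestin, palm1b, tagln3b and acsl4b, at 1.99 to 2.51-fold. High cells of cluster 1 with tfap2b were led by fabp11a, si:ch211-195b13.1, cebpd, gadd45ga and ddit3, the last pair known from stress responses.

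In mesenchyme-like cluster 2, cells with tfap2a were higher in dlx2a, a homeobox gene of crest-derived arch mesenchyme, and in grem2b, a BMP antagonist, in both libraries. Dlx2a had 451.5 against 104.1 CPM in low and 349.6 against 76.8 CPM in high cells. Low cells also had dlx5a, cdh6 and prdm1a among the leading 5. High cells had CABZ01021592.1, gch2 and impdh1b, the last pair of them xanthophore markers. Gch2 was seen in 57.1% of high cells with tfap2a and 48.9% without, impdh1b in 38.1% and 38.2%, and CABZ01021592.1 in 38.1% and 27.0%. The high set held 1738 CPM of xanthophore markers against 519.9 CPM in the cells without tfap2a, whose part in the result was not tested. In neuron-like cluster 4, scrt1a, a neuronal repressor gene, was high with tfap2a in both libraries, at 2331 against 535.1 CPM and 1252 against 553.8 CPM. Low cells also had uncx, neurod1 and robo3, and chgb, whose UMIs came from 1 cell. High cells had pou4f1, a sensory neuron factor, mab21l2, ywhaz and id1, with ywhaz seen in 38.5% of cells with tfap2a and 39.3% without. In that high set sensory neuron markers were at 562.4 against 941.1 CPM, neural crest markers other than tfap2 genes at 267.8 against 54.3 CPM and melanophore markers at 154.0 against 38.0 CPM, and their part was not tested.

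In epidermis-like cluster 7, low cells with tfap2a were led by lgals1l1, krt97, tnn, krt5 and krt91, the last 3 of them with 3.31 to 3.47-fold ratios. Epidermal markers summed to 50831 CPM with tfap2a and 30325 CPM without. Melanophore markers were at 269.2 against 11.7 CPM in the same cells, and their part was not tested. Cells of cluster 7 with tfap2c were led by grp, pvalb8, nova2, col4a4 and lgals1l1 in the low library, with grp seen in 7 of them and pvalb8 in 9. Melanophore markers were at 167.8 against 11.7 CPM in that set, and their part was not tested. In the high library they were led by ptgdsb.1, tnn, krt91, lgals1l1 and padi2. In neural progenitor-like cluster 0, cells with tfap2b had more pax3a, a dorsal neural tube factor, in both libraries (613.1 against 146.2 CPM and 493.2 against 160.8 CPM). Cells of cluster 0 with tfap2a were led by timp2b, myt1b, pax6b, hoxb3a and elavl3 in the low library, and by atoh1a, seen in 3 of 26 cells, crlf1a, vim, sox11a and mdkb in the high library. Neuron markers were at 1377 against 648.5 CPM in the low set, and neural crest markers other than tfap2 genes at 393.7 against 36.2 CPM in the high set, and their part was not tested. Among tfap2b cells, the low set was led by msx1b, pax3a, gadd45gb.1, hoxb3a and apoc1, the last seen in 3 of 26 cells. The high set was led by pax3a, cited4a, mdkb, zic2b and pou3f1. The low cells of cluster 0 with tfap2c were led by cyt1, seen in 3 of 20 cells, and krt4, seen in 2, followed by vim, en2b and serbp1b. Epidermis markers were at 2245 against 154.9 CPM there, and their part in the result was not tested. Cells with a member were deeper than cells without it in 18 of 19 such sets, by medians such as 9344 against 8186 UMIs for tfap2e in low cells of cluster 1, the exception being tfap2e in low cells of cluster 3 (9128 against 9211 UMIs).

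Genes that act with Tfap2 proteins were counted against cluster 7 by the same 2-fold rule. Of 8 partner and inhibitor genes, 7 were analysed, and kctd15b was not analysed here. Cited4b, of the CBP-binding cofactors known to coactivate AP-2 in mammals, was the only one higher in clusters 1, 3 and 6 in both libraries. In cluster 6 it had 729.3 against 97.2 CPM in low and 677.2 against 76.8 CPM in high cells. It was 1 of 5 genes over the minimum in clusters 1 and 3 and 1 of 4 in cluster 6. Of all genes tested, 20.3% to 33.0% were higher there. Lower were 2 or 3 of 5 genes in clusters 1 and 3 and 2 of 4 in cluster 6. Of all genes, 12.3% to 28.4% were lower. Such counts are too few to be read against these shares. Cited4a, the paralogue of cited4b, was lower throughout, with 12.7 against 122.7 and 9.73 against 146.1 CPM in cluster 6. Cited2 was lower in cluster 1, with log2 ratios of -2.56 and -2.31. Kctd15a, whose product inhibits Tfap2a in zebrafish, was at 1.48 and 2.49 CPM in cluster 3, from 1 and 8 UMIs. In cluster 7 it was at 31.3 and 48.7 CPM. The log2 ratios of cluster 3 were -4.40 (-9.76 to -1.80) and -4.29 (-5.64 to -3.10). Kctd15a was at 25.3 and 23.2 CPM in cluster 6 (-0.31 and -1.07). Kctd1 and wwox were under the minimum.

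Of 16 neural crest genes, 9 in the low and 11 in the high cells of cluster 6 reached the minimum. Of these, 7 and 6 were higher than in cluster 7 and 2 and 3 were lower, with a median log2 ratio of 1.34 and 3.48 against -0.03 and 0.44 over all genes tested. Of all genes tested there, 20.3% and 33.0% were higher and 28.4% and 16.8% were lower. Sox10, a crest factor upstream of mitfa, was at 910.5 and 770.3 CPM (log2 ratios 3.60 and 4.29), while prdm1a, a crest and epidermal regulator, was at 8.43 and 2.78 CPM (-4.35 and -5.70). In cluster 1, 10 of 14 and 7 of 13 were higher and 1 and 2 lower, with medians of 2.71 and 2.29 against 0.34 and 0.44 over all genes tested. The shares of all genes were 22.6% and 29.1% higher and 13.8% and 12.3% lower. Foxd3, an early crest factor, was at 434.2 and 282.8 CPM there and at 67.5 and 76.0 CPM in cluster 6. In cluster 3, 6 of 10 and 7 of 13 were higher and 1 and 2 lower, with medians of 2.04 and 1.94 against 0.13 and 0.30. Here 20.8% and 27.5% of all genes were higher and 23.1% and 16.0% lower.

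Of 11 melanophore genes, 9 of 9 in the low and 10 of 10 in the high cells of cluster 6 that reached the minimum were higher than in cluster 7, where 20.3% and 33.0% of all genes tested were higher, with medians of 6.58 and 6.91 against -0.03 and 0.44. In cluster 1 these counts were 7 of 8 and 9 of 10, against 22.6% and 29.1% of all genes, with medians of 2.23 and 4.51 against 0.34 and 0.44. In cluster 3 they were 4 of 5 and 5 of 7, against 20.8% and 27.5% of all genes, with medians of 4.38 and 4.62 against 0.13 and 0.30. Kita, the receptor kinase of melanophore survival and migration, which is known to depend on tfap2a in zebrafish, was at 92.7 and 45.4 CPM in cluster 6 and at 3.96 and 6.86 CPM in cluster 1. Summed over all cells of cluster 1, tfap2a was at 337.3 and 279.9 CPM, and the relation of kita to tfap2a within cells was not tested. Of 15 epidermal genes, 0 were higher in any pigment cluster. Lower were 12 of 12 and 10 of 10 that reached the minimum in cluster 1, 11 of 12 and 8 of 9 in cluster 3, and 9 of 12 and 8 of 9 in cluster 6. Of all genes tested, 13.8% and 12.3% were lower in cluster 1, 23.1% and 16.0% in cluster 3, and 28.4% and 16.8% in cluster 6. The list medians ran from -7.72 to -3.01, with genes at 0 UMIs set to 3 counts. Tp63, the basal epidermal regulator, was at 119.2 and 131.1 CPM in cluster 7, and at 0 and 0.926 CPM in cluster 6. Cdh1, an epithelial cadherin, stayed within 2-fold of cluster 7 in clusters 3 and 6, at 472.6 to 516.2 CPM against 737.4 and 700.7 CPM. Cluster 7 was named from krt4, krt5, krt8, cdh1, epcam, cldni and tp63, among others, so the epidermal counts are not independent of that name. The same holds for the 7 melanophore genes mitfa, dct, tyr, tyrp1a, tyrp1b, pmela and mlpha. The minimum was over both clusters, so a gene high in 1 of them could reach it through that cluster alone. Melanophore markers summed to 90.3 and 131.1 CPM in cluster 7, against 14371 and 16329 CPM in cluster 6. Epidermis markers summed to 36585 and 42176 CPM in cluster 7, against 847.3 and 937.5 CPM in cluster 6. The direction of the melanophore and epidermal counts is thus largely set by this filter.

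Genes with a profile most like that of a member were sought over the 18 groups of cluster and library with at least 20 cells, among 8231 genes, by Pearson correlation of log2(CPM + 1). The groups share cells of 2 libraries and differ in depth, and the correlations are descriptions. Tfap2e was most like smim29 (r = 0.98), scamp3 and ranbp9 (0.97 each), arl6ip1 and lamtor2 (0.96 each). Tfap2a was most like cds2, myo9ab and pi4k2b (0.93 each), twf1b and fam177a1 (0.92 each). Tfap2c was most like tax1bp3 and mcl1b (0.94 each), gpd1c and blvrb (0.93 each) and slc4a2a (0.92). Tfap2b was most like vim (0.95), pcloa (0.90), myt1b, cadm4 and polb (0.87 each). Among the members themselves, tfap2a and tfap2e were the closest pair (r = 0.89), followed by tfap2a and tfap2c (0.69) and tfap2c and tfap2e (0.60). Tfap2d, with 18 UMIs in 3 of the groups, is left out of this order.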

How the data were processed

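Single-cell RNA was measured with the 10x 3′ v3.1 kit in 1 library of low and 1 of high GFP cells, and libraries were kept apart. The authors made the deposited matrices, whose values are raw UMI counts for each gene in each cell, with Cell Ranger 6.1.2 and a GRCz11 reference, per the labels. The cell, cluster and GFP columns of the authors' Seurat table were used, and 12 other columns were not. The deposited aggregated matrix held 86.56% of the high library's UMIs and served as an alternative only. The table left out 541 of 5276 barcodes.

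UMIs were summed by cluster and library. Ratios had exact conditional, CPM exact Poisson and shares Clopper-Pearson intervals at 95%. A side with 0 UMIs was set to 3 counts per side in a ratio, and no ratio was given with both sides at or under 3. Thinned shares were hypergeometric expectations at 2000 UMIs, which left out 161 low and 124 high cells. Ratios were given a count only with at least 20 UMIs over both sides. Genes named were the members, the lists and the 5 genes most like each member (minimum of 200 UMIs). Also named were the 5 with the highest ratio of cells with to cells without a member (minimum of 50 UMIs in cells with it). Members and lists were chosen with earlier results of these data known. Clusters were named from fixed marker lists. The neural crest markers include tfap2a.

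No doublets were removed in the values given. Scrublet in scanpy 1.11.5 marked 6 low and 9 high cells by its automatic threshold, so an alternative dropped the top-scoring 5 percent (119 cells per library). Other alternatives were TMM factors (edgeR 4.0.16, R 4.3.3), median-of-ratios factors, totals without 13 mitochondrial and 93 ribosomal protein genes, equal weight per cell, and cells with at least 3000 UMIs. Sums and intervals were computed with pandas 2.3.3, scipy 1.17.1 and numpy 2.4.6 under Python 3.11.15. Only the ratio with its interval and the thinning were tested on simulated counts. For the ratio, modelled on cluster 3 against 7 in the high library, 193 of 199 changed genes had the right sign.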

Additional observations from a re-analysis of the deposited data

Results flagged for a closer look

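The barcodes that the authors' table left out, 310 low and 231 high, at medians of 945 and 1160 UMIs, also held tfap2 UMIs above the limit of 3 counts. In the low library these were 58 UMIs of tfap2a, 26 of tfap2c and 26 of tfap2e, or 54.6, 24.5 and 24.5 CPM, where 3 counts equal 2.82 CPM. In the high library they were 89 of tfap2a, 18 of tfap2c and 56 of tfap2e, or 130.9, 26.5 and 82.3 CPM, where 3 counts equal 4.41 CPM. What these barcodes contain was not tested.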

How the results depend on the processing

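Of 296 alternative values of 44 log2 ratios (pigment clusters against cluster 7, high against low, and ranges of cluster 1), 285 stayed inside the counting interval of the ratio. For tfap2a, high against low turned to 0.02 in cluster 3 and 0.10 in cluster 6 with TMM factors, which also moved tfap2e in cluster 6 to 0.57. TMM shifts every gene by 0.37 in cluster 3 and 0.52 in cluster 6. With median-of-ratios factors, cluster 1 against 7 in the high library moved to 1.66 for tfap2a and -1.93 for tfap2c, a shift of -0.52 for every gene. With equal weight per cell, tfap2e high against low moved to 2.01 over all cells and 0.02 in cluster 3, and its ratio between 10 or more and 0 pigmentation UMIs in low cells of cluster 1 to 4.18. Without the top doublet scores, the ratio between 5 or more and 0 cell cycle UMIs in high cells of cluster 1 moved to -2.53 for tfap2c and -3.10 for tfap2e. With ranges set by list UMIs relative to the depth of the cell, added after seeing the data, the latter moved to -2.23. The cause of these moves was not tested beyond the shifts named. In all, 9 values had the opposite sign, the others for ratios whose interval held 0. At 2 other thinning depths or without the top doublet scores, shares of cells moved in 34 of 66 cases and ratios of joint to single shares in 4 of 60. A share changes with the thinning depth by construction. Of the 5 genes most like a member, 1 to 5 were shared with another scale or minimum, and 7 of 12 alternatives shared fewer than 4. The share of all genes higher than in cluster 7 moved in 4 of 12 cases with no minimum or a minimum of 100 UMIs. No paired analysis was possible because each group had 1 library. Leaving out a replicate was not possible for the same reason. Few UMIs limit the values of tfap2d, of tfap2b and of tfap2e in cluster 7.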
